A study of Mus musculus with 6 samples.

Results

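The unfolded protein response and integrated stress response were followed through 38 mouse genes, out of 16229 listed genes. The 38 were chosen by name with earlier results of these data known, so counts over them are a description. They were found as the rows of the deposited table whose symbol is on the list of names. Poly-A RNA was sequenced from hearts of male wild-type C57BL/6 mice, aged 8 to 10 weeks, in a study of myocardial ischemia reperfusion injury, and the tissue taken held the infarct and the myocardium around it. The 2 rivaroxaban libraries (numbered 14 and 15) came from mice given this inhibitor of coagulation factor Xa at 3 mg/kg for 7 days. The 2 dabigatran libraries (10 and 12) came from mice given this inhibitor of factor IIa (thrombin) at 10 mg/kg for 7 days, so the doses differed between the drugs. The 2 untreated libraries (8 and 9) came from mice without either drug. No vehicle is named, and the labels leave unstated whether untreated mice underwent the cardiac procedure. They also leave unstated whether each library is its own mouse, so p-values measure the spread between these libraries only, which may be technical.

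The endoplasmic reticulum (ER) folds membrane and secreted proteins, and its sensors IRE1, PERK and ATF6 respond when unfolded proteins accumulate there. ATF6 and the spliced form of XBP1 switch on chaperones, folding enzymes and the machinery that sends misfolded proteins to the proteasome. PERK belongs to a family of kinases that phosphorylate the translation factor eIF2-alpha, which slows most protein synthesis but favours translation of the transcription factor ATF4, and ATF4 in turn drives genes for amino acid supply and for ending the response. In heart muscle these pathways are best known from ischemia, reperfusion and pressure overload.

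Values are log2 CPM, the logarithm of read counts divided by library depth, which the authors scaled between libraries. The 6 libraries held 27176892 to 43798222 reads. Of the 38 genes, 37 passed the filter of a mean of at least 0 log2 CPM, as did 12981 genes in all. The exception was Derl3, with 2 to 13 reads per library. The tested genes had 62 to 29454 reads per library. Cardiomyocyte markers were high in every library: Myh6, the alpha myosin heavy chain, lay between 15.18 and 15.25 log2 CPM. S100a8 and S100a9, defining markers of neutrophils, and the cytokine Il1b were below 0 log2 CPM in every library. Of 8 neutrophil markers looked for, 5 were listed, and 1 of these, Csf3r, passed the filter. Its log2 differences from untreated hearts were 0.19 with rivaroxaban and 0.18 with dabigatran, neither past the threshold.

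Markers of cell types that the heart samples could hold, some of them rich in ER, were followed beside the stress genes. The summed level of 8 fibroblast markers was 1647 and 1446 CPM with rivaroxaban, 1363 and 1494 CPM with dabigatran, and 1524 and 1425 CPM in untreated hearts, and none of the 8 passed the test in any comparison. The 7 plasma cell markers summed to 32.2 and 27.6 CPM with rivaroxaban, 28.9 and 32.8 CPM with dabigatran, and 36.9 and 36.1 CPM in untreated hearts. The antibody joining chain Jchain and the plasma cell receptor Tnfrsf17 were below the filter, and none of the other 5 passed the test in any comparison. Mzb1, a plasma cell chaperone, ran against the sum, with 1.77 and 1.87 log2 CPM with rivaroxaban, 1.79 and 1.41 with dabigatran, and 1.07 and 1.01 in untreated hearts. The 8 mesothelial markers summed to 47.5 and 55.9 CPM with rivaroxaban, 59.9 and 61.7 CPM with dabigatran, and 89.1 and 85.5 CPM in untreated hearts. Past the threshold were 6 lower and 1 higher for rivaroxaban (0.986% and 1.47% of all tested genes). For dabigatran 3 were lower and 1 higher (0.501% and 1.38% of all tested genes). The plasma cell and mesothelial sums were lower in all drug libraries, and their part in the results was not tested. In bulk tissue, fewer cells of a type and less RNA per cell cannot be told apart.

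The promoters of these genes carry known elements, and they are shown because the chaperones and the amino acid genes, whose values follow, are known targets of different factors. The ER stress response element (ERSE), bound by ATF6 together with NF-Y, was searched as CCAAT, 9 bases of any kind and CCACG, on both strands, from 250 bases before to 50 after the gene start in the RefSeq promoter table (GRCm38.p6). It was found in 9 of the 33 genes that had a promoter there (27.3%), against 37 of all 27025 genes with a promoter (0.137%). The set was chosen by name and holds known targets of ATF6, so its high share follows from that choice. The 9 were Calr, Canx, Creld2, Derl3, Dnajc3, Hsp90b1, Hspa5, Pdia6 and Syvn1, and Hsp90b1 held 2 copies. The Hspa5 stretch lies before the RefSeq start but overlaps an exon of the GENCODE annotation. In the sequences printed here, each in the direction of its gene and 5′ to 3′, capitals mark the ends of the element, CCAAT and CCACG, or CGTGG and ATTGG where it lies on the opposite strand.
Hspa5 (chr2:34772020-34772048, + strand): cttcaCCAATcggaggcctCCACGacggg
Pdia6 (chr12:17266473-17266527, + strand): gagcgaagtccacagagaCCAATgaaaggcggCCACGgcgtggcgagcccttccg
Calr (chr8:84847057-84847111, - strand): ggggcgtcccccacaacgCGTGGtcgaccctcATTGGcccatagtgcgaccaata
Hsp90b1, farther copy (chr10:86705620-86705674, - strand): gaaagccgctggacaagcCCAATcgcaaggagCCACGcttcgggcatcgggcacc
Hsp90b1, nearer copy (chr10:86705515-86705569, - strand): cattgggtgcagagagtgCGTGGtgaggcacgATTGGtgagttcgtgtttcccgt
Canx (chr11:50325782-50325836, - strand): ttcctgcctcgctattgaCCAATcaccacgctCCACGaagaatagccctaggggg
Dnajc3 (chr14:118937809-118937863, + strand): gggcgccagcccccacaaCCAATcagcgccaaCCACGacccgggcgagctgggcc
Creld2 (chr15:88819502-88819556, + strand): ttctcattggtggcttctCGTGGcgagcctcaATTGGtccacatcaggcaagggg
Syvn1 (chr19:6046514-6046568, + strand): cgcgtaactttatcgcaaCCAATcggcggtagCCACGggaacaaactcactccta

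Other elements were found in fewer of the 33 promoters than the ERSE. ERSE-II (ATTGG, 1 base of any kind, CCACG) was found in Dnajb11 and Herpud1, 6.06% of the 33, against 0.0444% of all genes with a promoter. The amino acid response element core TGATGNAA, a site of ATF4 with C/EBP partners, was found in Asns, Chac1, Herpud1 and Trib3, 12.1% of the 33, against 4.51% of all. The cyclic AMP response element TGACGTCA was found in Ppp1r15a alone (3.03%, against 2.03% of all). The element TGACGTGG, bound by XBP1, was found in 0 of the 33, against 0.714% of all. A match is a description and not a site. In the next sequences capitals mark the letters of the amino acid response element core, on the opposite strand in Chac1. The Asns stretch also overlaps an exon of the GENCODE annotation.
Chac1 (chr2:119351031-119351074, + strand): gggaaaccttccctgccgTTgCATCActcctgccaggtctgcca
Asns (chr6:7693214-7693243, - strand): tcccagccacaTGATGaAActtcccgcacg

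Levels between genes were compared per kilobase of annotated exon, as CPM averaged over the 6 libraries. Hspa5, which encodes BiP, the main chaperone of the ER lumen, was highest at 179 CPM per kilobase. It was followed by the calcium-binding lectin chaperone Calr at 164, the degradation factor Herpud1 at 95.5 and the membrane lectin chaperone Canx at 76.3. The thiol oxidoreductase Pdia3 came next with 60.8 CPM per kilobase. At the other end stood 3 enzymes of amino acid synthesis, Asns (1.29), Psat1 (1.05) and Phgdh (0.888 CPM per kilobase), and Derl3 (0.108), a factor of retrotranslocation known from secretory cells. Chaperones thus took 4 of the 5 highest ranks, although Hyou1 and Sdf2l1 ranked 25 and 26 of 38.

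**Figure D1:**
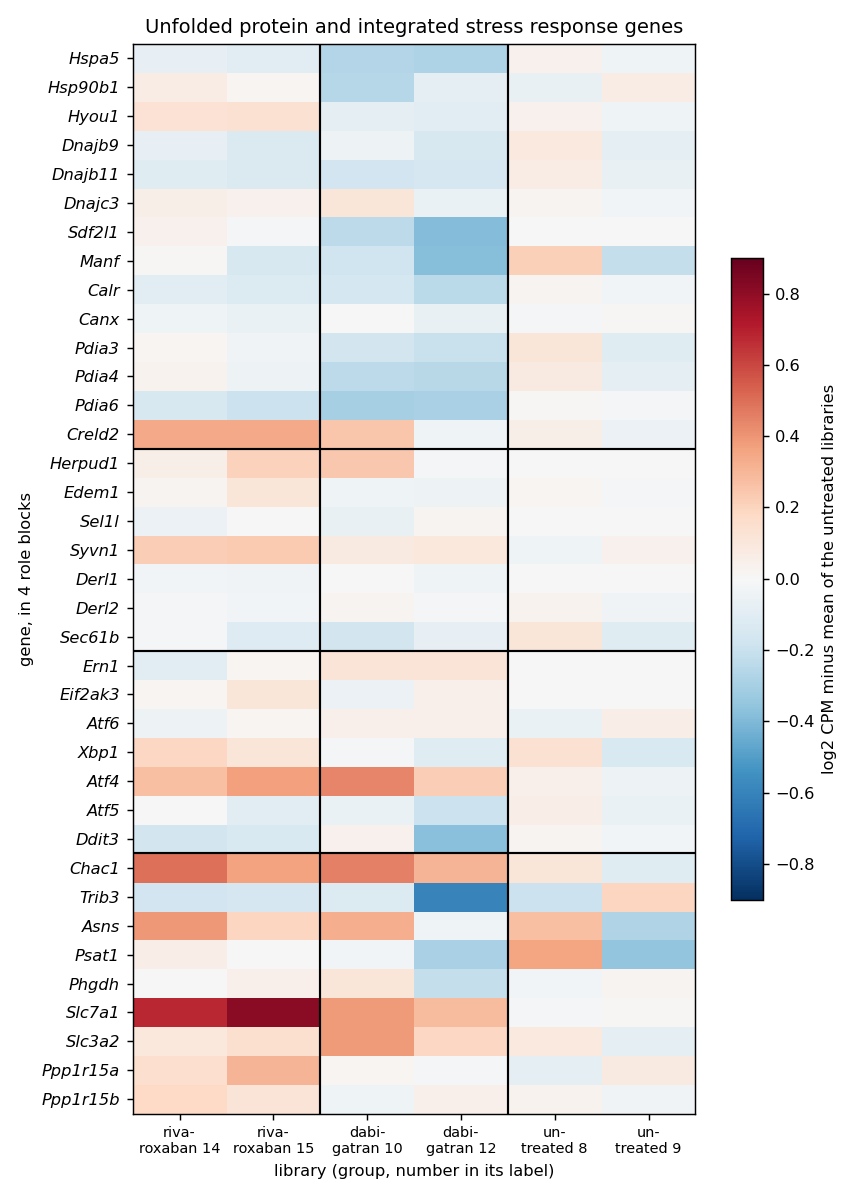
Each cell gives the log2 CPM of a tested gene in a library minus the mean of the untreated libraries, for the 37 genes in 4 blocks separated by black lines (from the top: chaperones and folding factors, degradation and translocon, sensors and transcription factors, targets and feedback). Slc7a1 is the darkest red row with rivaroxaban and paler with dabigatran, while the dabigatran columns are blue for most of the upper block.

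Against untreated hearts, the ER chaperones and folding factors were lower in dabigatran hearts for Hspa5 and Pdia6 and for no other gene of the block past the threshold, while rivaroxaban hearts had 0 of 14 past it. Hspa5 (chr2:34771970-34777547, + strand, mm10) had 9.60 and 9.58 log2 CPM with rivaroxaban, 9.41 and 9.40 with dabigatran, and 9.72 and 9.63 in untreated hearts. Both dabigatran libraries lay below all other libraries, and the rivaroxaban libraries lay between the other groups. With dabigatran Hspa5 fell to 0.83-fold of the untreated level, a log2 change of -0.27 (SE 0.05, 95% interval -0.38 to -0.16, adjusted p = 0.0231, limma with Benjamini-Hochberg adjustment over 12981 genes). With rivaroxaban the log2 difference was -0.08 (95% interval -0.19 to 0.03, adjusted p = 0.419).

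Pdia6 (chr12:17266545-17284770, + strand), a protein disulfide isomerase that also damps IRE1 and PERK, had 6.84 and 6.79 log2 CPM with rivaroxaban, 6.68 and 6.69 with dabigatran, and 6.99 and 6.97 in untreated hearts. The 3 groups did not overlap, with dabigatran lowest and untreated hearts highest. With dabigatran it fell to 0.815-fold (log2 change -0.29, SE 0.05, 95% interval -0.41 to -0.18, adjusted p = 0.0195, limma). With rivaroxaban the log2 difference was -0.17 (95% interval -0.28 to -0.06, adjusted p = 0.122). Exons of Atp6v1c2 overlap Pdia6 on the opposite strand, and that gene was below 0 log2 CPM in every library.

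These calls rest on little replication. Leaving out dabigatran 10 gave an adjusted p of 0.0803 for Hspa5 and 0.0812 for Pdia6, and leaving out untreated 8 gave 0.136 and 0.106. The Hspa5 call was also lost without rivaroxaban 14 (0.0546), rivaroxaban 15 (0.0556) or dabigatran 12 (0.0585), and the Pdia6 call without untreated 9 (0.0578), although the log2 change kept its sign, within -0.31 to -0.23 for Hspa5 and within -0.31 to -0.28 for Pdia6.

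Calr had 8.88 and 8.86 log2 CPM with rivaroxaban, 8.82 and 8.74 with dabigatran, and 9.01 and 8.95 in untreated hearts, so both drug groups lay below the untreated libraries. Its log2 difference from untreated hearts was -0.11 with rivaroxaban (adjusted p = 0.311) and -0.20 with dabigatran (SE 0.05, 95% interval -0.31 to -0.09, adjusted p = 0.0860). Pdia4, another disulfide isomerase, had 5.52 and 5.44 log2 CPM with rivaroxaban, 5.25 and 5.24 with dabigatran, and 5.57 and 5.41 in untreated hearts. Only the dabigatran libraries of Pdia4 stood apart, with a log2 difference of -0.24 from untreated hearts (SE 0.07, 95% interval -0.40 to -0.08, adjusted p = 0.141). The Pdia4 difference of rivaroxaban from untreated hearts was -0.01 (95% interval -0.17 to 0.15, adjusted p = 0.969).

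The remaining chaperones had smaller or noisier differences. Against untreated hearts, dabigatran hearts had log2 differences of -0.31 for Sdf2l1, a partner of ER DnaJ proteins (adjusted p = 0.227), and -0.28 for the secreted factor Manf (0.334). Pdia3 had -0.18 (0.245), the HSP90 paralog Hsp90b1 -0.17 (0.258) and the BiP cochaperone Dnajb11 -0.16 (0.254). Further cochaperones had -0.09 (Dnajb9) and 0.03 (Dnajc3), the nucleotide exchange factor Hyou1 had -0.10, Canx -0.03 and the ATF6 target Creld2 0.10. With rivaroxaban, Creld2 stood out with 4.25 and 4.25 log2 CPM, against 3.95 and 3.85 in untreated hearts (log2 difference 0.34, 95% interval 0.11 to 0.57, adjusted p = 0.122).

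Counts over the genes of the block, as of the whole set, are a description. The genes were measured in the same 6 libraries and are not independent, so a shift of a single library can move many together. Against untreated hearts the median log2 difference of the 14 genes was -0.03 with rivaroxaban and -0.18 with dabigatran, where the medians over all 12981 tested genes were 0.0050 and 0.0026. With dabigatran 12 of the 14 had a lower mean than untreated hearts, as did 6386 of all 12981 tested genes. In 9 of the 14 both dabigatran libraries lay below both untreated libraries, an arrangement found in 20.8% of all tested genes. With rivaroxaban 5 of 14 lay below in this way (24.5% of all tested genes) and 3 above (26.1%). The summed level of the 14 genes was 2480 and 2426 CPM with rivaroxaban, 2277 and 2221 CPM with dabigatran, and 2616 and 2502 CPM in untreated hearts. Without Hspa5 the sums were 1702 and 1660 CPM with rivaroxaban, 1595 and 1547 CPM with dabigatran, and 1775 and 1707 CPM in untreated hearts, so the order of the groups did not rest on the most abundant gene.

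**Figure D2:**
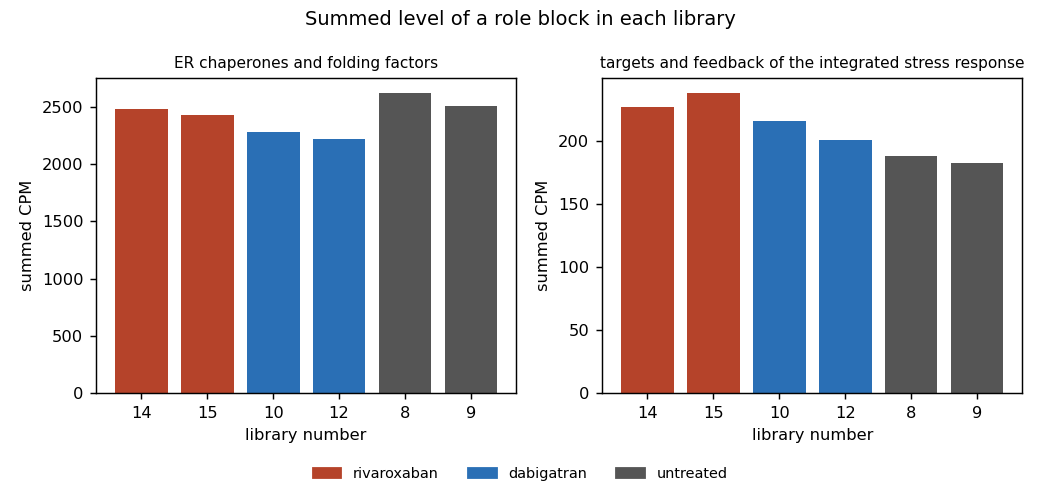
Bars give the summed CPM of the 14 chaperones and folding factors (left) and of the 9 targets and feedback genes of the integrated stress response (right) in each library, coloured by group. The chaperone sum is lowest in the dabigatran libraries (2221 and 2277 CPM), and the target sum is lowest in the untreated libraries (182 and 188 CPM) and highest with rivaroxaban (227 and 237 CPM).

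Genes with the ERSE had differences of either sign against untreated hearts. Of the 8 that were tested, 4 had a higher and 4 a lower mean with rivaroxaban than in untreated hearts (log2 -0.17 to 0.34), and 3 a higher and 5 a lower mean with dabigatran (-0.29 to 0.10). Between the drugs 7 of the 8 had a higher and 1 a lower mean with rivaroxaban than with dabigatran (median 0.13), where 18 of the 24 tested genes with a promoter and no ERSE had a higher mean (median 0.07). Of all 12981 tested genes, 6542 had a higher mean with rivaroxaban than with dabigatran. Hspa5 and Pdia6, both lower with dabigatran, carry the element, and so does Syvn1, which lay above untreated hearts.

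ER-associated degradation retrotranslocates misfolded proteins into the cytosol, and none of the 7 tested genes of this block passed the threshold in any comparison. Syvn1 (chr19:6046576-6053712, + strand), the HRD1 ubiquitin ligase at the centre of the pathway, had 5.64 and 5.65 log2 CPM with rivaroxaban, 5.50 and 5.52 with dabigatran, and 5.38 and 5.45 in untreated hearts. The groups did not overlap, with rivaroxaban highest. The log2 difference from untreated hearts was 0.23 with rivaroxaban (SE 0.06, 95% interval 0.09 to 0.36, adjusted p = 0.0936) and 0.09 with dabigatran (95% interval -0.05 to 0.23, adjusted p = 0.550). Exons of Mrpl49 overlap Syvn1 on the opposite strand, at 5.62 to 5.73 log2 CPM, and whether the counting used strand is not given in the sources used here.

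The other genes of the degradation block had smaller differences from untreated hearts. Herpud1, which recruits the ligase, had log2 differences of 0.13 with rivaroxaban and 0.12 with dabigatran. The ligase adaptor Sel1l had -0.03 and -0.02, and the mannosidase-like lectin Edem1 had 0.07 and -0.04, with rivaroxaban first in each pair. The derlins Derl1 and Derl2, membrane factors of the same machinery, were at -0.03 and -0.02 with rivaroxaban and at -0.02 and 0.0039 with dabigatran. The translocon subunit Sec61b had -0.06 with rivaroxaban and -0.12 with dabigatran. Derl3, below the filter, had 13 and 10 reads with rivaroxaban, 2 and 3 with dabigatran, and 5 and 9 in untreated hearts, too few to compare.

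Among the sensors and transcription factors, 0 of 7 passed the threshold against untreated hearts, and Atf4 came nearest with both drugs. Atf4 (chr15:80255184-80257541, + strand), the central factor of the integrated stress response, had 6.45 and 6.55 log2 CPM with rivaroxaban, 6.62 and 6.40 with dabigatran, and 6.23 and 6.13 in untreated hearts. All 4 drug libraries lay above both untreated libraries, and the drug groups overlapped. The log2 difference was 0.32 with rivaroxaban (SE 0.08, 95% interval 0.15 to 0.49, adjusted p = 0.0563) and 0.33 with dabigatran (SE 0.08, 95% interval 0.16 to 0.50, adjusted p = 0.0590). Over the 15 alternatives the adjusted p ran between 0.0231 and 0.399 for rivaroxaban, with Atf4 past the threshold in 4, and between 0.0166 and 0.305 for dabigatran, with Atf4 past it in 2. It passed for rivaroxaban without dabigatran 10 (0.0233) or dabigatran 12 (0.0231), and for dabigatran without dabigatran 12 (0.0166).

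The sensors themselves had small differences at the RNA level, none past the threshold. Ern1, which encodes IRE1-alpha, had log2 differences from untreated hearts of -0.04 with rivaroxaban and 0.11 with dabigatran. Eif2ak3, which encodes PERK, had 0.06 with rivaroxaban and -0.0031 with dabigatran, and Atf6 had -0.01 and 0.05. Xbp1 had 0.15 with rivaroxaban and -0.06 with dabigatran, and the table holds a single value per gene, so its spliced and unspliced forms are not told apart. Atf5, an ATF4-related factor, had -0.05 and -0.13. Ddit3, which encodes the pro-apoptotic factor CHOP, had 4.80 and 4.83 log2 CPM with rivaroxaban, 5.003 and 4.59 with dabigatran, and 4.99 and 4.94 in untreated hearts. The Ddit3 differences were -0.15 with rivaroxaban (adjusted p = 0.528) and -0.17 with dabigatran (0.538), and its exons overlap those of Mars on the opposite strand.

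The targets and feedback genes of the integrated stress response held the largest change of the set. Slc7a1 (chr5:148327410-148399904, - strand), a transporter that carries arginine and lysine into cells, had 6.19 and 6.32 log2 CPM with rivaroxaban, 5.89 and 5.80 with dabigatran, and 5.50 and 5.52 in untreated hearts. The groups did not overlap, with rivaroxaban highest, dabigatran between and untreated hearts lowest. It rose 1.68-fold with rivaroxaban (log2 change 0.74, SE 0.07, 95% interval 0.60 to 0.89, adjusted p = 4.81e-04, limma) and 1.26-fold with dabigatran (log2 change 0.33, SE 0.07, 95% interval 0.19 to 0.48, adjusted p = 0.0364). The rivaroxaban call held with each library left out. The dabigatran call was lost without dabigatran 10 (adjusted p = 0.189), untreated 8 (0.152) or untreated 9 (0.0931), at log2 changes of 0.29 to 0.34.

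Slc7a1 was the single gene of the 37 past the threshold with rivaroxaban (2.70%), where 1.47% of all tested genes were higher and 0.986% lower. With dabigatran 1 of the 37 was higher, against 1.38% of all tested genes, and 2 were lower (5.41%), against 0.501%. At an unadjusted p under 0.05, rivaroxaban hearts had 6 of the 37 higher (16.2%, against 9.45% of all tested genes) and 1 lower (2.70%, against 7.75%). Dabigatran hearts had 4 higher (10.8%, against 8.47%) and 9 lower (24.3%, against 6.19%) by the same measure. All 9 of these lower genes were chaperones or folding factors.

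**Figure D3:**
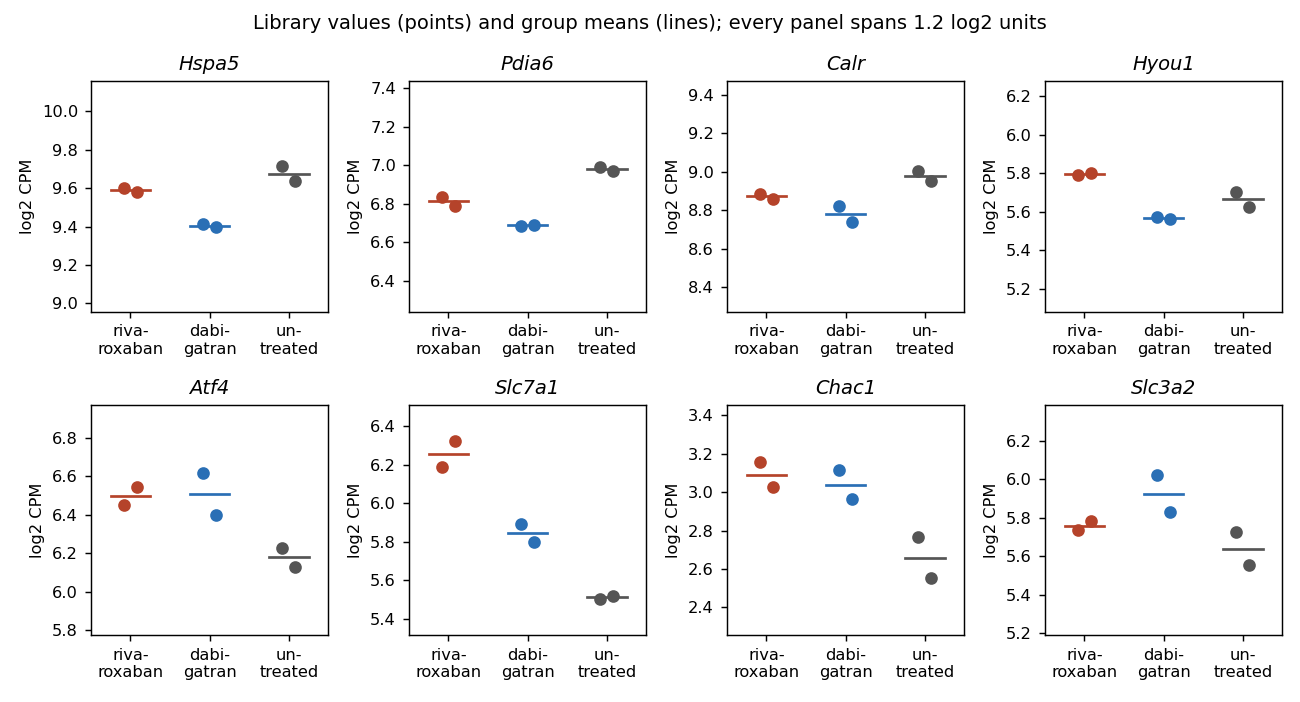
Points give the log2 CPM of each library and lines the group means for 8 genes, in panels that all span 1.2 log2 units. Hspa5 and Pdia6 are lowest with dabigatran, and Slc7a1 is highest with rivaroxaban (6.19 and 6.32), intermediate with dabigatran (5.89 and 5.80) and lowest in untreated hearts (5.50 and 5.52).

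Chac1, which encodes a glutathione-degrading enzyme and is a sensitive ATF4 target, had 3.16 and 3.02 log2 CPM with rivaroxaban, 3.11 and 2.96 with dabigatran, and 2.76 and 2.55 in untreated hearts. All drug libraries were above the untreated libraries and the drug groups overlapped. The log2 difference was 0.43 with rivaroxaban (SE 0.13, 95% interval 0.15 to 0.71, adjusted p = 0.108) and 0.38 with dabigatran (SE 0.13, 95% interval 0.10 to 0.66, adjusted p = 0.180). Slc3a2, the heavy chain that partners several amino acid transporters, had 5.73 and 5.78 log2 CPM with rivaroxaban, 6.02 and 5.83 with dabigatran, and 5.72 and 5.55 in untreated hearts. Its dabigatran libraries were the highest, with a log2 difference of 0.28 from untreated hearts (SE 0.08, 95% interval 0.11 to 0.46, adjusted p = 0.118), and the rivaroxaban difference was 0.12 (adjusted p = 0.480).

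None of the remaining targets passed the threshold. Ppp1r15a (GADD34), which directs the phosphatase that reverses eIF2-alpha phosphorylation, had 5.42 and 5.57 log2 CPM with rivaroxaban, 5.28 and 5.25 with dabigatran, and 5.19 and 5.35 in untreated hearts. Its log2 difference was 0.23 with rivaroxaban (adjusted p = 0.161) and -0.0020 with dabigatran. The constitutive counterpart Ppp1r15b had 0.15 with rivaroxaban (adjusted p = 0.337) and 0.0047 with dabigatran. Trib3, a pseudokinase that restrains ATF4 and CHOP signalling, had -0.16 with rivaroxaban (95% interval -0.57 to 0.25) and -0.36 with dabigatran (-0.77 to 0.05). The asparagine synthetase Asns had 0.29 and 0.14, the serine synthesis enzyme Psat1 had 0.03 and -0.16, and Phgdh, the entry enzyme of that pathway, had 0.03 and -0.05, with rivaroxaban first. The widest replicate pair among these low genes was that of Psat1 in untreated hearts, with 2.57 and 1.85 log2 CPM.

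The summed level of the 9 targets and feedback genes was 227 and 237 CPM with rivaroxaban, 216 and 200 CPM with dabigatran, and 188 and 182 CPM in untreated hearts. Without Slc7a1 it was 154 and 157 CPM with rivaroxaban, 157 and 145 CPM with dabigatran, and 142 and 137 CPM in untreated hearts, so Slc7a1 held the larger part of the rivaroxaban difference, and the drug groups overlapped without it. Against untreated hearts the median log2 difference of the 9 was 0.15 with rivaroxaban and 0.0047 with dabigatran, and 8 of 9 had a higher mean with rivaroxaban and 5 of 9 with dabigatran. Of all 12981 tested genes, 6680 had a higher mean with rivaroxaban and 6595 with dabigatran. Over all 37 tested genes the groups did not overlap in 13 higher and 7 lower with rivaroxaban (35.1% and 18.9%), against 26.1% of all tested genes higher and 24.5% lower. With dabigatran they did not overlap in 6 higher and 10 lower (16.2% and 27.0%), against 22.8% of all tested genes higher and 20.8% lower. The median difference of the 37 was 0.01 with rivaroxaban and -0.04 with dabigatran. Without untreated 8 it was 0.06 with rivaroxaban and -0.01 with dabigatran, and without dabigatran 10 it was -0.07 with dabigatran. The drug comparisons share the untreated libraries, so their values are given side by side and were not tested against each other except directly.

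**Figure D4:**
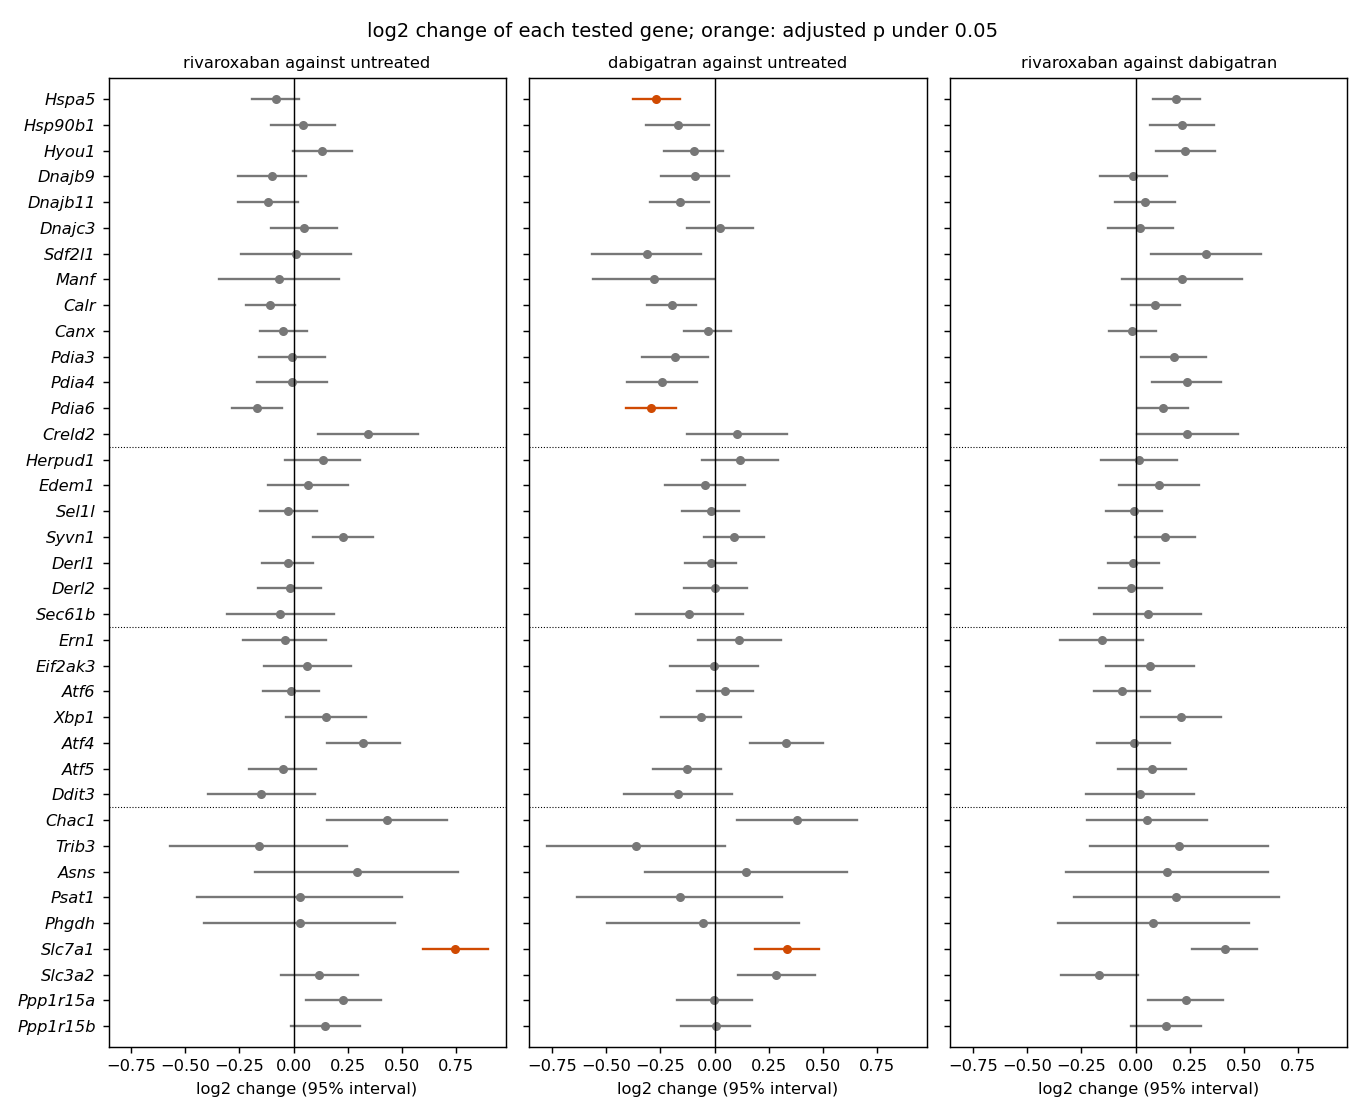
Points give the log2 change of each of the 37 tested genes and lines its 95% interval from limma, for rivaroxaban against untreated, dabigatran against untreated and rivaroxaban against dabigatran, with orange for an adjusted p under 0.05. Orange marks Slc7a1 with rivaroxaban, and Hspa5, Pdia6 and Slc7a1 with dabigatran, and no gene between the drugs, where most chaperones lie right of 0.

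Compared directly at their own doses, rivaroxaban and dabigatran hearts differed past the threshold in 0 of the 37 genes by limma, where 0% of all tested genes were higher and 0.077% lower with rivaroxaban. At an unadjusted p under 0.05, 11 of the 37 were higher with rivaroxaban (29.7%, against 4.02% of all tested genes) and 0 lower (against 4.41%). The nearest to the threshold was Slc7a1, with a log2 difference of 0.41 (SE 0.07, 95% interval 0.26 to 0.56, adjusted p = 0.0690). The robust variance estimate gave 0.0318 for it, the single setting that placed a gene of the set past the threshold between the drugs.

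Hyou1, which exchanges nucleotide on BiP and is itself a large chaperone, had 5.79 and 5.80 log2 CPM with rivaroxaban, 5.57 and 5.56 with dabigatran, and 5.70 and 5.62 in untreated hearts. Its rivaroxaban libraries lay above and its dabigatran libraries below the untreated libraries. The log2 difference between the drugs was 0.23 (SE 0.06, 95% interval 0.09 to 0.36, adjusted p = 0.297). Hspa5 had 0.19 (95% interval 0.08 to 0.30, adjusted p = 0.280) and Pdia4 0.23 (95% interval 0.07 to 0.40, adjusted p = 0.380). Further genes at an unadjusted p under 0.05 were Sdf2l1 (0.32), Creld2 (0.24), Ppp1r15a (0.23), Hsp90b1 (0.21), Xbp1 (0.21), Pdia3 (0.18) and Pdia6 (0.12 on the log2 scale).

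Among the 11 genes higher with rivaroxaban at an unadjusted p under 0.05, Creld2, Hsp90b1, Hspa5, Hyou1, Pdia3, Pdia4, Pdia6 and Sdf2l1 belong to the chaperone block. For the 14 chaperones the median log2 difference of rivaroxaban from dabigatran was 0.18, against 0.0011 over all tested genes and 0.09 over the 37 (0.13 without dabigatran 10 and 0.05 without dabigatran 12). In 11 of the 14 both rivaroxaban libraries lay above both dabigatran libraries, as in 19.3% of all tested genes, and in 0 below. Over the 37 genes this held for 18 higher and 3 lower (20.4% of all tested genes lower), the 3 being Atf6, Ern1 and Slc3a2. Atf4 and Chac1 differed little between the drugs, by -0.01 (95% interval -0.18 to 0.16) and 0.05 (-0.23 to 0.33). Dabigatran libraries enter both this comparison and that with untreated hearts, so a low value in them moves both.

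Genes of the same pathways outside the set were read from separate lists. These lists were chosen with earlier results of these data known, so their counts are a description. Of 28 tested further targets of ATF4 and CHOP, 5 were higher and 0 lower past the threshold with rivaroxaban, against 1.47% of all tested genes higher and 0.986% lower. With dabigatran 5 were higher and 0 lower, against 1.38% of all tested genes higher and 0.501% lower. Ddit4, an inhibitor of mTORC1, had 5.72 and 5.88 log2 CPM with rivaroxaban, 6.26 and 5.77 with dabigatran, and 4.59 and 4.45 in untreated hearts (log2 changes 1.28 and 1.498, adjusted p = 8.14e-04 for rivaroxaban and 3.33e-04 for dabigatran). Atf3, a stress-induced repressor, had 3.31 and 3.62 log2 CPM with rivaroxaban, 4.08 and 3.54 with dabigatran, and 2.19 and 2.19 in untreated hearts (log2 changes 1.27 and 1.62). All drug libraries of both genes lay far above the untreated libraries. Ddit4 and Atf3 are also induced by other stress and hormone signals.

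The others past the threshold with rivaroxaban were the glutamine transporter Slc38a2 (log2 change 0.50), the AP-1 related factor Jdp2 (0.66) and the C/EBP factor Cebpb (1.07). With dabigatran they were the alanine transaminase Gpt2 (0.35), the lipoprotein receptor Vldlr (0.30) and Jdp2 (0.63). Genes called with a single drug had a difference of the same sign with the other drug that missed the threshold. With dabigatran Cebpb had 1.02 (adjusted p = 0.0579, limma) and Slc38a2 had 0.31 (0.0611). With rivaroxaban Gpt2 had 0.17 (0.258) and Vldlr had 0.18 (0.165). The median over the 28 was 0.17 with rivaroxaban and 0.13 with dabigatran. Between the drugs 0 of 28 passed, and the lowest p belonged to the mitochondrial folate enzyme Aldh1l2 (log2 difference 0.42, adjusted p = 0.347, limma). Against untreated hearts Aldh1l2 was lower with dabigatran (-0.39, adjusted p = 0.155, not past the threshold) and little different with rivaroxaban (0.03, 0.930). With a library left out, the rivaroxaban calls of Atf3 (adjusted p = 0.0538) and Slc38a2 (0.0663) were lost without rivaroxaban 15, that of Cebpb without rivaroxaban 14, rivaroxaban 15 or untreated 9 (up to 0.312), and that of Jdp2 on leaving out rivaroxaban 14, rivaroxaban 15, untreated 8 or untreated 9 in turn (up to 0.234). The dabigatran call of Vldlr was lost on leaving out dabigatran 10, dabigatran 12, untreated 8 or untreated 9 in turn (up to 0.197). Those of Gpt2 (up to 0.195) and Jdp2 (up to 0.194) were lost on leaving out each library other than dabigatran 12. Without the mean-variance trend none of these calls held, Ddit4 included (adjusted p between 0.0887 and 0.251). The rivaroxaban call of Cebpb was also lost with quantile normalization (0.0729), robust variances (0.316) and voom (0.0603). Quantile normalization also lost the dabigatran calls of Gpt2, Vldlr and Jdp2. The dabigatran calls of Gpt2 and Jdp2 were lost with only the compared groups fitted, and that of Jdp2 with voom.

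Beyond these ATF4 and CHOP targets, 33 further ER chaperones, translocon and folding genes, 23 degradation components, 24 sensors and regulators and 13 aminoacyl-tRNA synthetases that ATF4 induces had 0 genes past the threshold in any comparison by limma. At an unadjusted p under 0.05 these 4 lists had 3, 3, 0 and 1 genes in either direction with rivaroxaban, where 9.45% of all tested genes were higher and 7.75% lower. They had 2, 2, 0 and 0 with dabigatran, where 8.47% of all tested genes were higher and 6.19% lower, and 1, 0, 1 and 0 between the drugs (4.02% and 4.41%). These counts lie at or below the shares over all genes. The lowest p among the folding genes with either drug belonged to the ER oxidase Ero1lb (log2 differences 0.50 and 0.45, adjusted p = 0.132 for rivaroxaban and 0.202 for dabigatran), and between the drugs to the translocon subunit Sec61g (-0.20). Among the degradation components it belonged to the ubiquitin ligase Rnf5 with rivaroxaban (-0.22), the VCP cofactor Nploc4 with dabigatran (0.20) and the VCP adaptor Faf2 between the drugs (0.14). Among the regulators it belonged to the amino acid sensor kinase Eif2ak4 with rivaroxaban (0.22), Eif2s1, which encodes eIF2-alpha, with dabigatran (-0.10) and the factor Creb3l2 between the drugs (0.15). Among the synthetases it belonged to the valine enzyme Vars with rivaroxaban (0.17), Eprs with dabigatran (0.11) and the tryptophan enzyme Wars between the drugs (-0.13). The median log2 difference of these 4 lists lay between -0.03 and 0.03 in every comparison.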

How the data were processed

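The authors deposited log2 CPM values for 6 mouse heart libraries, TMM-scaled per the file headers. Per the submitters' processing notes, bcl2fastq, FastQC, Trim Galore, STAR and edgeR were used with build mm10, with versions, read counter and gene models not given in the sources at hand. The smallest steps of each column gave whole reads (100% of low values within 0.02 reads), from which totals were recovered.

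Genes averaging at least 0 log2 CPM were tested with limma 3.58.1 (R 4.3.3, eBayes with a mean-variance trend, two-sided) in a single fit of 3 groups of 2 libraries, with Benjamini-Hochberg adjustment over all 12981 genes within each comparison and a threshold of 0.05. The fit has 3 residual degrees of freedom, and the variance shared over genes adds 7.75 prior degrees of freedom. Scripts were tested on simulated data. The 38 genes, the pathway and marker lists and the tests were chosen with earlier results of these data known.

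Full statistics are given for genes past the threshold in any comparison and for up to 4 per comparison with the lowest p that missed it. From each pathway list the genes past the threshold are named, or else that with the lowest p. Creld2, Ddit3, Ppp1r15a and Psat1 were given library values after these were seen. Coordinates and exon lengths come from the GENCODE annotation of mm10, and promoters from RefSeq, where Atf6, Derl1, Hyou1, Manf and Ppp1r15b were not matched. Exons of other genes overlap 13 of the 38 genes, 12 of them on the opposite strand, and their values are uncertain to that extent. The 15 alternatives covered filters, a pseudocount of 1 CPM, scaling, variance models, voom on the recovered reads and each library left out. Low reads limit precision through counting error for Derl3.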

Additional observations from a re-analysis of the deposited data

How the results depend on the processing

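Of the genes followed, 1 passed the threshold with rivaroxaban against untreated hearts, 3 with dabigatran and 0 between the drugs. With rivaroxaban this became 0 without the mean-variance trend, 2 with robust variances, 2 with only the compared groups fitted, and 1 to 2 with a library left out, Atf4 being the gene added. With dabigatran it became 0 without the trend, 4 with robust variances (Atf4 added), 1 (Pdia6) with only the compared groups, and 0 to 3 with a library left out. Between the drugs it became 1 (Slc7a1) with robust variances. Without the trend the largest adjusted p for Slc7a1 with rivaroxaban was 0.0620, and the other 14 alternatives kept that call. The Slc7a1 call with dabigatran was also lost with quantile normalization (adjusted p = 0.0642) and with only the compared groups (0.0502). The Hspa5 call was lost with only the compared groups (0.0543), and Calr with dabigatran passed with quantile normalization (0.0482). The cause was not tested.

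Signs turned in 3 differences that had missed the threshold, each near 0 and with a library left out: Pdia4 with rivaroxaban against untreated hearts (-0.091 to 0.075), Atf4 between the drugs (-0.12 to 0.10) and Chac1 between the drugs (-0.022 to 0.13). No paired analysis was made, because the labels state no pairing, batch or date and their numbers differ between all 6 libraries. With 2 libraries per group the precision rests on a spread shared over groups and, through the mean-variance trend, over all tested genes. The part shared over genes weighed as 7.75 prior degrees of freedom, beside 3 residual ones from the libraries.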
